A study of Solanum lycopersicum with 8 samples.

Results

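Rubisco fixes CO2 in the Calvin cycle. The enzyme is built from a large subunit encoded in the plastid and a small subunit encoded by a small nuclear gene family. Rubisco activase, also nuclear encoded, is an ATP-driven remodelling protein that frees the active site from tightly bound sugar phosphates. In green leaf, messages of both families are among the abundant products of mesophyll cells. The glandular heads of tomato trichomes hold plastids too and are best known for the secretion of terpenes, flavonoids and acyl sugars.

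The 5 genes described here were taken from a list of IDs, 3 given as Rubisco small subunits and 2 as Rubisco activase, out of 34725 genes in the files. The study sequenced RNA of the tomato (Solanum lycopersicum) cultivar M82 in gland cells isolated from type VI trichomes, which are leaf hairs with a secretory head, and in leaf scraped free of them. Each tissue has 4 libraries from 4 sampling times. Plants had grown for 5 weeks at 28 °C and 250 µE. By their labels, leaf RNA came from the af (anthocyanin free) mutant and trichome RNA from complemented line #4, a single line whose complementing gene the labels do not name. The protocols take the shaved leaf from the plants of the trichome preparation, which conflicts with these genotype labels. If the genotype labels hold, tissue and genotype cannot be told apart in any value below.

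Leaf libraries held 19209754 to 34941715 counts in genes, and trichome libraries 24596280 to 26514416. All 8 fixed gland markers were called higher in trichome, with a summed level of 342.9 to 731.7 CPM (counts scaled to library size with TMM factors) in leaf and 15243 to 31183 in trichome. All 5 fixed markers of leaf mesophyll and phloem were called lower, with summed levels of 9906 to 16094 CPM in leaf and 566.3 to 963.6 in trichome. Over all tested genes, 33.9% were called higher and 38.5% lower in trichome. Both marker lists were chosen with earlier results of these data known, so their calls are no independent check of the tissues. Trichome replicate 4 stood apart from the other trichome libraries: its TMM factor was 0.773 against 0.928 to 1.02, and 24.4% of its counts were not assigned to a single gene, against 18.4% to 21.9%. Trichome replicate 4 is therefore also given apart below. Among leaf libraries, replicate 4 had the lowest TMM factor, 0.937 against 1.03 to 1.24. Its share of counts not uniquely aligned was 4.44%, against 2.87% to 3.10% in the other leaf libraries.

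Of the 3 small subunit IDs, Solyc02g063150 is listed as rbcS1 and Solyc03g034220 as RBCS-2A. In the RefSeq gene table, genes of these names lie on the same chromosomes, at 22.57% and 18.55% of the gene order. Among the counted genes the IDs lie at 23.75% and 21.59%, which does not contradict the names but cannot single out a gene. By the same measure, Solyc02g085950 lies close to a pair of neighbouring small subunit genes in that table, RBCS3 and RBCS4. These have 1 protein-coding gene between them. Which of them the ID counts is not settled, and reads shared between near-identical copies make the split within the family uncertain. The share of all counts set aside as not uniquely aligned was 2.87% to 4.44% in leaf and 4.64% to 6.70% in trichome libraries. The table has no symbol for either activase ID, and their role rests on the list.

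All 5 genes fell from leaf to trichome, with log2 fold changes of -9.43 to -3.90, and none overlapped between the tissues. Together they took 3.27% ± 0.537 of gene counts in leaf and 0.139% ± 0.0120 in trichome (SD, n = 4 each). The edgeR quasi-likelihood test, with Benjamini-Hochberg adjustment over 20409 tested genes, called all 5 at an adjusted p under 0.05. In that test 72.4% of tested genes were called, 38.5% of them as lower and 33.9% as higher in trichome, both as shares of the tested genes. Ranges that did not overlap, with trichome lower, were found for 36.8% of tested genes. The median log2 fold change was -4.86 over the 5 genes and -0.09 over all tested genes. In bulk RNA, fewer cells of a type and less of a message per cell cannot be told apart.

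**Figure D1:**
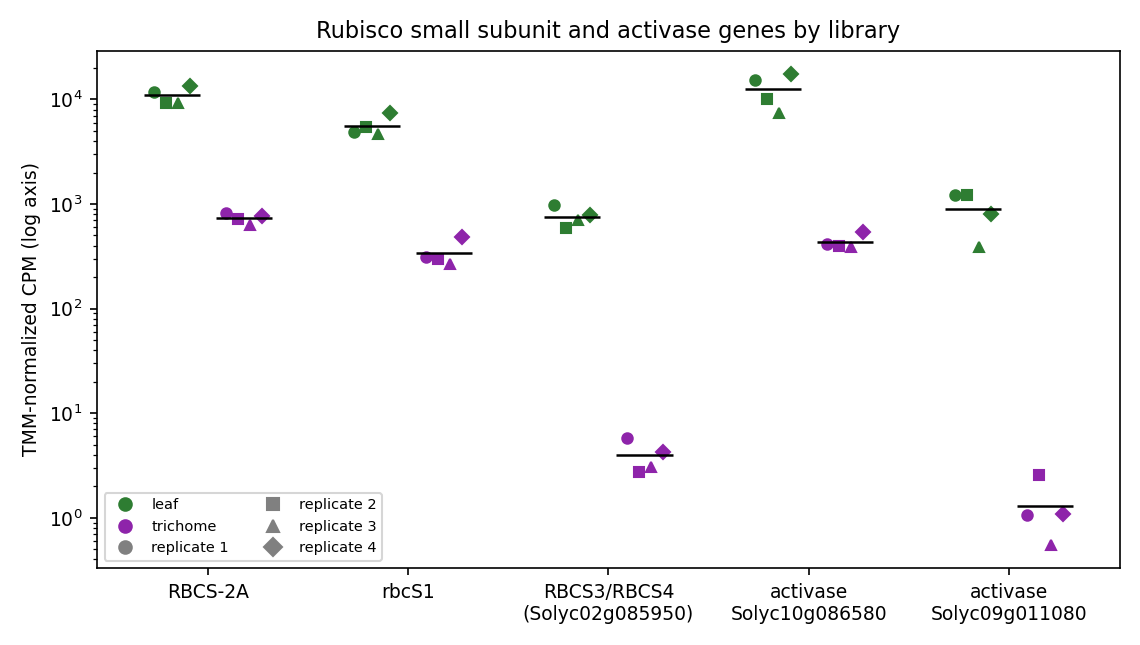
Levels of the 5 genes in each library, as TMM-normalized CPM on a log axis. Symbols mark the replicate, green is shaved leaf, purple is trichome gland cells, and black lines are means of 4 libraries. The tissues come closest for rbcS1, whose lowest leaf library has 4623 CPM and highest trichome library 479.8.

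RBCS-2A, a small subunit, had 11816, 9188, 9176 and 13485 CPM in leaf replicates 1 to 4 and 827.5, 718.8, 625.8 and 761.2 CPM in trichome replicates 1 to 4. Leaf replicate 4 was highest, and the trichome libraries lay close together. The log2 fold change was -3.90 (SE 0.31, edgeR adjusted p = 5.44e-06).

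The second small subunit gene, rbcS1, had 4932, 5445, 4623 and 7372 CPM in leaf and 312.0, 295.8, 265.5 and 479.8 CPM in trichome. Replicate 4 was highest in both tissues. The log2 fold change was -4.05 (SE 0.33, edgeR adjusted p = 5.76e-06).

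The third small subunit ID, Solyc02g085950 (RBCS3 or RBCS4), had 970.4, 585.3, 700.7 and 780.7 CPM in leaf. In trichome it had 5.81, 2.72, 3.03 and 4.24 CPM, from 154, 62, 82 and 86 counts. Its trichome level was low in each library, though above the level of 3 counts (0.113 to 0.122 CPM before TMM factors). It fell by 7.58 on the log2 scale (SE 0.36, edgeR adjusted p = 4.41e-07).

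The activase gene Solyc10g086580 had 15464, 10198, 7354 and 17389 CPM in leaf and 413.2, 393.1, 386.8 and 542.8 CPM in trichome. Leaf replicate 3 was the lowest leaf library, and the highest leaf library had 2.36 times its level. The log2 fold change was -4.86 (SE 0.41, edgeR adjusted p = 7.80e-06).

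Solyc09g011080, the other activase gene, had 1207, 1216, 389.7 and 794.7 CPM in leaf. Trichome libraries held 1.06, 2.54, 0.553 and 1.08 CPM, from 28, 58, 15 and 22 counts. Leaf replicate 3 was again the lowest leaf library and trichome replicate 3 the lowest trichome library. Its log2 fold change was -9.43 (SE 0.67, edgeR adjusted p = 2.78e-06), the largest fall of the 5 genes. A lower log2 fold change was found for 1.22% of tested genes. The corresponding share was 4.23% for Solyc02g085950, 9.83% for Solyc10g086580, 12.3% for rbcS1 and 12.8% for RBCS-2A.

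The share of the leaf level that remained in trichome split the 5 genes. RBCS-2A kept 6.72% ± 0.774 and rbcS1 6.05% ± 1.72 of the mean leaf level (SD over 4 trichome libraries). Activase Solyc10g086580 kept 3.44% ± 0.583. Solyc02g085950 kept 0.520% ± 0.185, and Solyc09g011080 kept 0.145% ± 0.0951. In each family, the gene with the fewest counts in leaf kept the smallest share. The median over all tested genes was 93.6%.

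Library by library, RBCS-2A kept 7.58%, 6.58%, 5.73% and 6.97% of the mean leaf level in trichome replicates 1 to 4. For rbcS1 these shares were 5.58%, 5.29%, 4.75% and 8.58%, so that replicate 4 reversed the order of the pair. Solyc02g085950 kept 0.766%, 0.358%, 0.398% and 0.558%. Activase Solyc10g086580 kept 3.28%, 3.12%, 3.07% and 4.31%, highest in replicate 4. For Solyc09g011080 the shares were 0.117%, 0.282%, 0.0614% and 0.120%, with replicate 2 highest. Every library kept the split: the lowest share of RBCS-2A, rbcS1 or Solyc10g086580 was 3.07%, and the highest of the other pair was 0.766%.

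Without collection 4 in either tissue, the shares were 7.20% for RBCS-2A, 5.82% for rbcS1, 0.512% for Solyc02g085950, 3.61% for Solyc10g086580 and 0.148% for Solyc09g011080. Against the leaf library of the same number, Solyc10g086580 kept 2.67%, 3.85%, 5.26% and 3.12%, highest in collection 3, where the leaf level was lowest. RBCS-2A kept 7.003%, 7.82%, 6.82% and 5.64% on that scale.

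**Figure D2:**
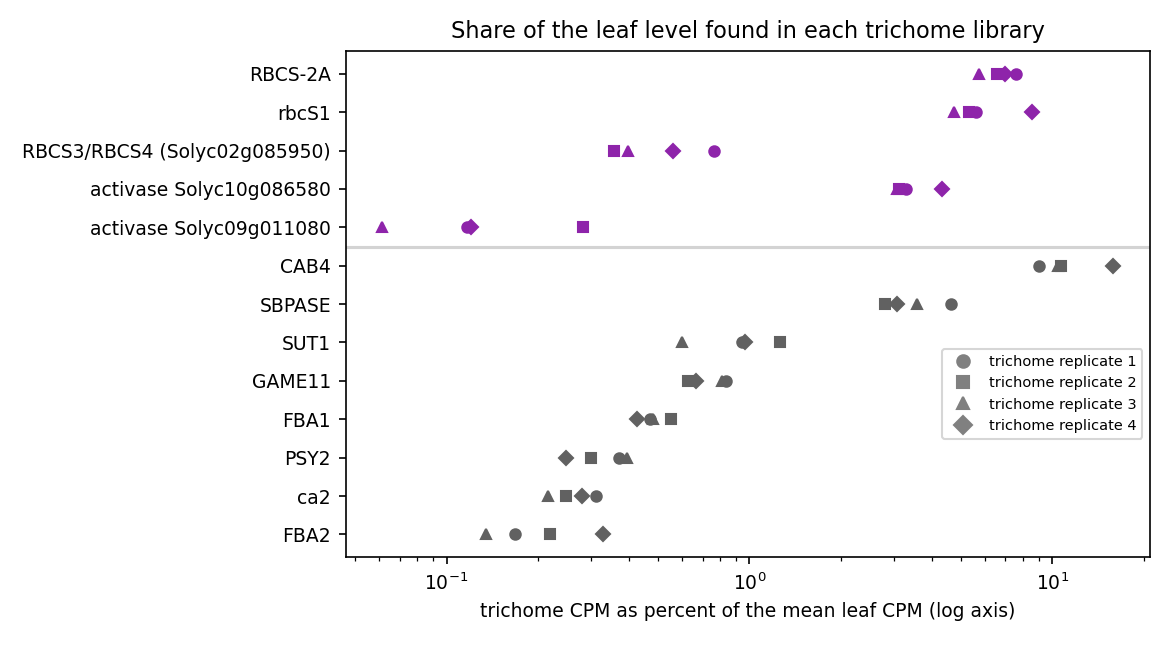
Share of the mean leaf level found in each of the 4 trichome libraries, in percent on a log axis, for the 5 genes (purple, above the line) and 8 other leaf genes (grey). The 8 were picked from the lists and do not stand for leaf genes at large. Not shown are other genes of the lists, among them ca1, CAT2 and GLO2, which kept means of 18.8%, 21.8% and 0.677%. Calvin cycle IDs not shown kept means from 0.0617% (Solyc10g054870) to 615.7% (Solyc05g050970), and the median of that list was 10.4%. RBCS-2A, rbcS1 and Solyc10g086580 lie between 3.07% and 8.58%, and the other pair between 0.0614% and 0.766%, where FBA1, PSY2, ca2 and FBA2 also lie.

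The 5 markers of leaf mesophyll and phloem kept widely different shares, from 0.113% to 11.5%, and so set no single scale for the 5 genes. CAB4, a chlorophyll a/b-binding protein, kept 11.5% ± 3.01. Lower shares were kept by SUT1, the phloem sucrose loader (0.942% ± 0.270), GAME11, of glycoalkaloid synthesis (0.735% ± 0.104), and PSY2, a phytoene synthase of leaf carotenoids (0.328% ± 0.0673). The fifth marker, Solyc07g056540, kept 0.113% ± 0.0118, so that none of the 5 markers was at 0. RBCS-2A, rbcS1 and Solyc10g086580 kept smaller shares than CAB4 and larger shares than the other 4 markers in every trichome library. The mean shares of Solyc02g085950 and Solyc09g011080 lay within the range of those 4 means. By library, Solyc09g011080 was below the lowest of them, Solyc07g056540, in replicate 1 (0.117% against 0.130%) and replicate 3 (0.0614% against 0.103%). Whether leaf material in the trichome preparation takes part in their counts was not tested.

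Within each library, ratios between the 5 genes need no scaling between libraries. Small subunit counts are here those of the 3 listed IDs, and activase counts those of the 2 listed IDs. The RefSeq table holds 4 small subunit genes, so counts of a further family member may be missing from these ratios. The shares below are of counts and are not corrected for gene length, so they are read between tissues and not between genes. In all, 5 such measures were tested with an exact two-sided permutation test over 70 splits, where the smallest p is 0.0286, adjusted over the 5 measures.

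Solyc02g085950 made up 5.48%, 3.85%, 4.83% and 3.61% of small subunit counts in leaf and 0.508%, 0.267%, 0.338% and 0.341% in trichome. The tissues did not overlap. Its share fell from 4.44% ± 0.871 to 0.363% ± 0.102 (exact permutation p = 0.0286, adjusted p = 0.0476, n = 4 each), lower in 4 of 4 collections. For the lowest trichome library, 62 of 23204 counts, the 95% Wilson interval was 0.209% to 0.342%, which covers counting error only.

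The share of rbcS1 was 27.8%, 35.8%, 31.9% and 34.1% in leaf and 27.2%, 29.1%, 29.7% and 38.5% in trichome. The tissues overlapped, and a difference was not called (32.4% ± 3.43 against 31.1% ± 5.04, exact permutation p = 0.657, adjusted p = 0.657, n = 4 each). RBCS-2A held 66.7%, 60.4%, 63.3% and 62.3% in leaf and 72.3%, 70.7%, 69.98% and 61.1% in trichome. It was not called either (63.2% ± 2.64 against 68.5% ± 5.01, exact permutation p = 0.114, adjusted p = 0.143, n = 4 each). Trichome replicate 4 set this overlap: without collection 4 the means were 63.4% in leaf and 71.0% in trichome, and 3 against 3 libraries cannot give a p below 0.1. Per 100 counts of RBCS-2A, rbcS1 had 37.7, 41.1 and 42.4 counts in trichome replicates 1 to 3 and 63.0 in replicate 4.

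In the activase family, Solyc10g086580 held 92.8%, 89.3%, 94.97% and 95.6% of counts in leaf and 99.7%, 99.4%, 99.9% and 99.8% in trichome. Its share rose from 93.2% ± 2.83 to 99.7% ± 0.226 (exact permutation p = 0.0286, adjusted p = 0.0476, n = 4 each). The rest is Solyc09g011080, which ranged from 4.37% to 10.7% in leaf and from 0.143% to 0.643% in trichome. For the lowest library, trichome replicate 3 with 15 of 10499 counts, the 95% Wilson interval was 0.0866% to 0.236%.

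Activase also fell relative to the small subunits. For every 100 small subunit counts there were 94.1, 75.0, 53.4 and 84.0 activase counts in leaf and 36.2, 38.9, 43.3 and 43.7 in trichome. Leaf replicate 3 came nearest to the trichome libraries, and the tissues did not overlap. The log2 ratio of activase to small subunit counts was -0.41 ± 0.353 in leaf and -1.31 ± 0.131 in trichome (exact permutation p = 0.0286, adjusted p = 0.0476, n = 4 each).

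These 3 calls are at the smallest p that 70 splits allow. Each was kept without any single leaf library (adjusted p = 0.0476) and lost when any trichome library was left out (adjusted p 0.0714 to 0.0952), where the difference in share of Solyc02g085950, for example, was -4.13 to -4.05 percentage points against -4.08. Each was also lost with tissue labels exchanged within collections, where 16 arrangements cannot give a p below 0.125 (adjusted p = 0.208).

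**Figure D3:**
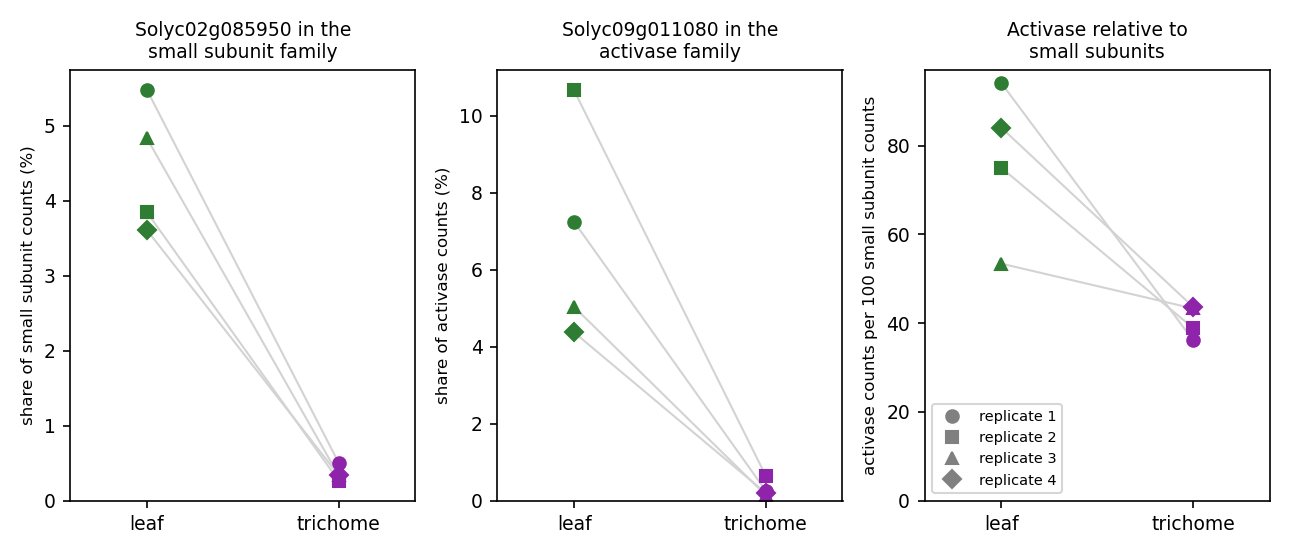
Ratios within each library for leaf and trichome, with symbols for the replicate and grey lines joining libraries of one collection. Left, Solyc02g085950 as percent of small subunit counts; middle, Solyc09g011080 as percent of activase counts; right, activase counts per 100 small subunit counts. In all 3 panels every trichome library lies below every leaf library, and the tissues come closest for leaf replicate 3 in the right panel (53.4 against 43.7).

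Replicate 4 changed its place with the scaling. With TMM factors, trichome replicate 4 was the highest trichome library for rbcS1 and Solyc10g086580. Scaled to gene totals alone, rbcS1 was still highest there (370.9 CPM against 271.4 to 313.0), whereas Solyc10g086580 was close to the others (419.6 against 364.5 to 414.6). RBCS-2A, second highest with TMM factors, was then lowest in replicate 4 (588.4 CPM against 639.8 to 830.3). With gene totals alone the median log2 fold change of all tested genes was -0.31 in place of -0.09, and all 5 genes still fell.

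The enzymes that follow Rubisco in the Calvin cycle were read from a list of 12 IDs, all tested. In edgeR's test 11 fell and 1 rose, against 38.5% of all tested genes called lower and 33.9% higher. The median log2 fold change of the 12 IDs was -3.27. For 3 of them the RefSeq table holds the listed name at a similar position. FBA2 and FBA1, fructose-bisphosphate aldolases, kept 0.213% ± 0.0848 and 0.483% ± 0.0523 of leaf, smaller shares than RBCS-2A or rbcS1 kept. SBPASE, sedoheptulose-bisphosphatase, which acts in the regeneration of the CO2 acceptor, fell from 1356 ± 303 to 47.8 ± 10.9 CPM and kept 3.52% ± 0.802. The ID that rose, Solyc05g050970, went from 42.3 ± 5.22 to 260.4 ± 33.2 CPM (log2 2.62, edgeR adjusted p = 1.34e-06). One that fell, Solyc10g086730, kept 59.3% ± 8.14 and lost its call without collection 1 (adjusted p = 0.0613). Kept shares on this list ran from 0.0617% to 615.7%, and those of the 5 Rubisco genes lay within this wide range. The median of the list was 10.4%, above the largest share of the 5 Rubisco genes, 6.72% for RBCS-2A. FBA1, FBA2 and SBPASE lay below that median.

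Photorespiration recycles the product that Rubisco forms with oxygen. Of 5 IDs listed for it, 4 fell and 1 rose in edgeR's test, against 38.5% and 33.9% of all tested genes. The median log2 fold change of the 5 IDs was -6.80. GLO2, a glycolate oxidase, fell from 410.9 ± 115 to 2.78 ± 0.795 CPM. CAT2, a catalase that removes the hydrogen peroxide formed in this route, fell from 1743 ± 568 to 379.7 ± 94.9 CPM. The riser, Solyc04g076790, had a log2 fold change of 0.36 (adjusted p = 0.0442) and lost its call in 15 of 20 alternatives.

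Carbonic anhydrases interconvert CO2 and bicarbonate. Of 3 listed genes 2 were tested, and both fell, where 38.5% of all tested genes were called lower. The level of ca2 went from 4337 ± 1919 to 11.5 ± 1.75 CPM (0.264% ± 0.0404 of leaf), and that of ca1 from 279.2 ± 91.2 to 52.6 ± 7.58 CPM (18.8% ± 2.71). The third, ca3, did not pass the filter on low counts, with 196 counts in leaf replicate 4, 49 in trichome replicate 3 and at most 5 in any other library.

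A list of 3 IDs written down as plastid chaperonins, the folding machines that assist Rubisco assembly, went the other way. All 3 rose in edgeR's test, by 1.48 to 3.75 on the log2 scale, where 33.9% of all tested genes were called higher. Solyc01g028810 went from 325.3 ± 145 to 1596 ± 220 CPM and Solyc06g075010 from 33.6 ± 8.47 to 451.3 ± 92.2 CPM. The RefSeq table has no symbol for these IDs, and their naming rests on the list.

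**Figure D4:**
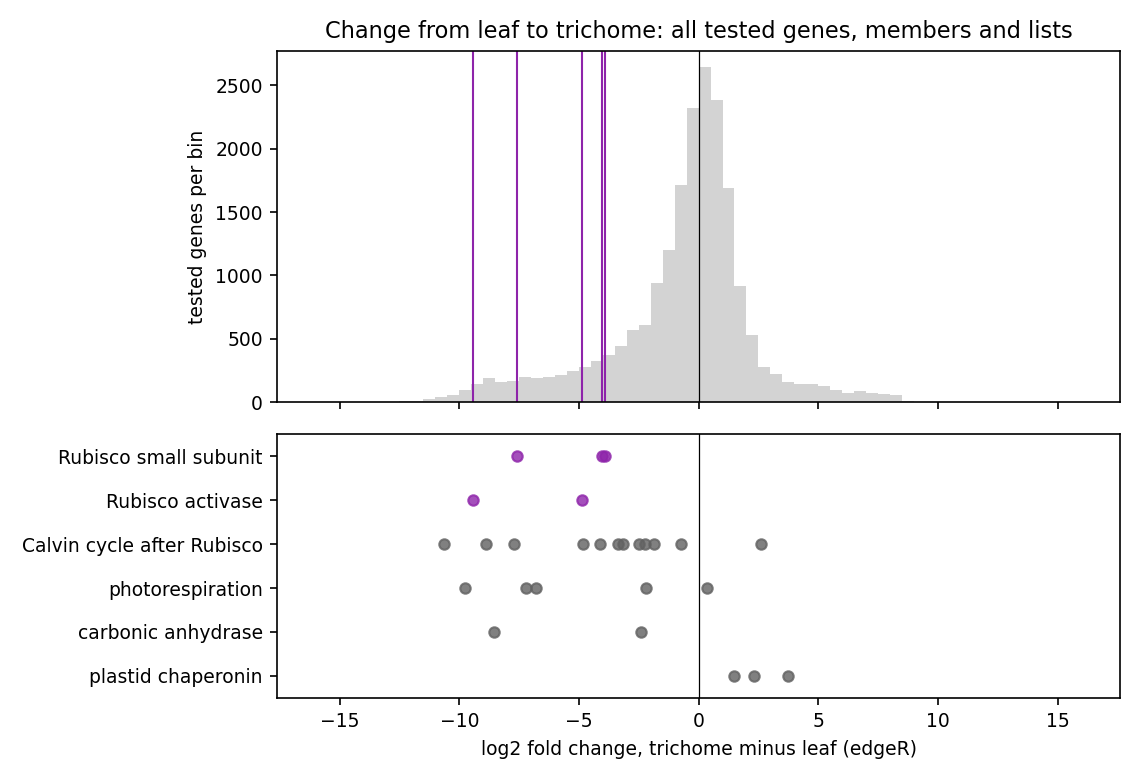
Upper panel, distribution of log2 fold changes (trichome minus leaf) over 20409 tested genes, with purple lines at the 5 Rubisco genes. Lower panel, the same axis with 1 point per tested gene for the small subunits, the activases and 4 lists. The 5 genes lie between -9.43 and -3.90, below the median of all genes at -0.09, and the 3 chaperonin IDs lie above 0.

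The other cell types a trichome preparation could hold were read in the same way. Of 3 markers of other epidermal cells, 1 was called higher and 2 lower, against 33.9% and 38.5% of all tested genes. Their summed levels were 370.4 to 588.1 CPM in leaf and 371.7 to 620.7 in trichome. One of the lower calls, CD1 (Solyc11g006250), overlapped between tissues and was lost in 8 of 20 alternatives (adjusted p up to 0.172). All 5 markers of tip cells of other glandular hairs were called higher, against 33.9% of all tested genes. Summed levels of these 5 markers were 0.642 to 12.5 CPM in leaf and 99.3 to 147.3 in trichome. Of these, Solyc01g105580 and Solyc04g012020 overlapped between tissues and lost their calls in 5 of 18 and 2 of 19 alternatives. Trichome replicate 4 was lowest for both, at 0.0986 CPM against 2.29 to 4.03 and 1.53 CPM against 9.02 to 12.5. The same held for ASAT1 (Solyc12g006330), at 1.23 CPM against 3.40 to 4.16, and for ASAT3 (Solyc11g067270), at 54.3 CPM against 64.1 to 101.7. IPMS3 (Solyc08g014230) went the other way, highest in replicate 4 at 49.7 CPM against 20.4 to 26.8. The part of these markers in the values of the 5 Rubisco genes was not tested.

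Genes with the most similar pattern were sought by the distance of mean-centred log2(CPM + 1) over the 8 libraries. For the summed small subunits, the nearest were Solyc08g079310, Solyc05g009610, Solyc08g079770, Solyc06g066010 and Solyc08g076220, at distances of 0.350 to 0.461 (median over all genes 5.64). The first 4 had leaf means of 13.4 to 16.6 CPM and trichome means under 0.05 CPM, where the added 1 sets the size of the change. Solyc08g076220, on the Calvin cycle list, went from 3695 ± 737 to 214.4 ± 55.2 CPM. For activase Solyc10g086580 the nearest were Solyc11g044450, Solyc10g081910, Solyc05g050240, Solyc05g051580 and Solyc06g084050 (0.475 to 0.616). The first 4 of these had leaf means of 29.3 to 61.0 CPM and trichome means under 1 CPM, so that the added 1 shapes their likeness too. Among genes with a leaf mean of at least 100 CPM, a limit chosen after seeing the data, Solyc08g076220 was nearest to the small subunits and Solyc06g084050 (562.3 and 18.3 CPM) to Solyc10g086580.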

How the data were processed

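The authors deposited raw read counts per gene, 1 file per library. The submitters' processing notes name Trimmomatic, TopHat2, SAMtools and HTSeq and give no versions. Build, annotation and strand setting, not given in the sources used here, are unknown, so overlapping and antisense genes cannot be told apart. HTSeq's summary lines (12.7% to 24.4% of all counts) were left out. The 5 genes and the lists were chosen with earlier results of these data known.

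All 8 libraries entered 1 edgeR fit (version 4.0.16, R 4.3.3) with TMM factors, filterByExpr, the quasi-likelihood test and no block. Calls were made at an adjusted p (Benjamini-Hochberg, all tested genes) under 0.05. Standard errors, approximate, are the log2 fold change over the root of F. Levels are CPM from the deposited counts with TMM factors. A share of leaf kept is a trichome level over the mean of 4 leaf levels, with the SD over trichome libraries alone. Fits were checked on simulated counts in which few genes changed, up and down alike, so that check does not cover the scaling of these data. Alternatives were other factors and filters, DESeq2 1.42.0, limma-voom (limma 3.58.1), the replicate block, and leaving out each library or collection.

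No ID matched RefSeq assembly SLM_r2.1 directly. Of 48 listed IDs, the table holds a symbol for 29, and all 29 agreed in chromosome and relative position within 5 percentage points. So wide a limit cannot single out a gene, and the names rest on the lists. Other IDs are not named. Genes named are the 5 genes, the lists' genes and the 5 nearest in pattern to the summed small subunits and to Solyc10g086580.

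Replicate numbers pair the libraries, because the labels give both tissues the same sampling times. After group means were removed, same-numbered libraries correlated at 0.0760, 0.138, 0.221 and 0.177. Libraries of unlike numbers ranged from -0.249 to 0.145, which overlaps these values. No pair of libraries of a tissue agreed within sampling noise (chi-square per degree of freedom 44.4 to 185.7). The labels name 4 separate collections, and p-values treat these as independent.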

Additional observations from a re-analysis of the deposited data

Results flagged for a closer look

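In 104 groups of 4 libraries, 6 had a library whose gap to the next exceeded Dixon's 95% critical value for 4 samples, and chance flags about 1 in 20 such groups. Of the 5 Rubisco genes, activase Solyc10g086580 was flagged for trichome replicate 4, at 542.8 CPM against 386.8 to 413.2 in the other trichome libraries; scaled to gene totals alone, the gap was 0.0912 of the range. The same library gave 3 other flags. Solyc07g066610, of the Calvin cycle list, had 714.7 CPM there against 428.3 to 461.8. Solyc11g069790, of the chaperonin list, had 516.9 CPM against 646.3 to 669.4. The gland marker MTS1 had 459.9 CPM against 273.3 to 299.8. In leaf replicate 2, a pair of markers of other glandular hairs stood out. Solyc04g012020 had 3.01 CPM there against 0.153 to 0.454, and Solyc01g105580 had 0.595 CPM against 0 to 0.101.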

How the results depend on the processing

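All 5 Rubisco genes kept their direction and call in all 20 alternatives to the edgeR fit, the replicate block included, which changed no call of theirs (log2 -4.06 for rbcS1, -7.62 for Solyc02g085950, -3.88 for RBCS-2A, -4.79 for Solyc10g086580 and -9.49 for Solyc09g011080). Counts of called genes stayed within 1.5 times of 14780. The share of leaf kept by RBCS-2A was 5.85% with library size alone. Without 1 library or without collection 4, the difference in share of Solyc02g085950 ran from -4.36 to -3.73 percentage points, that of Solyc10g086580 from 5.24 to 7.33, and the difference in log2 ratio from -1.06 to -0.78. Their calls were kept without any single leaf library (adjusted p 0.0476) and lost when a trichome library was left out (adjusted p 0.0714 to 0.0952). There the raw p of both shares was still 0.0286, and that of the log2 ratio 0.0571. Without collection 4 (adjusted p 0.125), 20 splits cannot give a p below 0.1. With the replicate block (labels exchanged within collections), the differences were -4.08 and 6.51 percentage points and -0.89, each at an adjusted p of 0.208. The difference for rbcS1's share, not called, reversed to 0.0379 percentage points without trichome replicate 1; over all left-out libraries it ran from -3.73 to 0.0379. Shares per coding length were not run, because no coding lengths were given. Trichome counts of 15 to 154 limit the precision for Solyc09g011080 and Solyc02g085950.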
